A study of Mus musculus with 48 samples.

Results

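The 9 genes followed here encode the enzymes that write, copy and remove DNA methylation at cytosine: the oxidases Tet1, Tet2 and Tet3, the glycosylase Tdg, the maintenance methyltransferase Dnmt1 with its partner Uhrf1, the de novo methyltransferases Dnmt3a and Dnmt3b, and their catalytically inactive partner Dnmt3l. They were chosen by name for their roles, by no threshold on their levels, though with earlier results of these data known. All 9 were found in each table, among 22173 genes in the count table of the gonadal stages, 13682 genes in the FPKM table of the cultures, and 32285 genes in the single-cell table. Only mRNA was measured, so that neither methylation itself nor enzyme activity can be read from these values.

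The study derived gonadal somatic cell-like cells (GSCLCs) from mouse embryonic stem cells (ESCs) with vitamin C (Vc) and AM580, an agonist of the retinoic acid receptor RARα, and set them beside gonadal somatic cells (GSCs). All samples carry the strain label C57BL/6 and no other genotype. ESCs were held in 2i + LIF on feeder fibroblasts, freed of feeders by their faster adhesion to the dish, and seeded on fibronectin without 2i + LIF. Con_24h and Con_48h received no compound, Vc_24h and Vc_48h received Vc, AM580_24h and AM580_48h received AM580, and V580_24h and V580_48h received both, with 2 libraries in each of these 8 groups. Cultures kept in both compounds were sampled on day 4, 6, 8 and 10 (V580_D4, V580_D6, V580_D8 and V580_D10) with 3 libraries a day, and 3 libraries of cells from female gonads at E12.5 (E12.5_GC) were tabulated with them. GSCs of female gonads at E12.5, E13.5 and E16.5 and of ovaries 6 weeks after birth (P6w) gave 2 libraries per stage. They were the cells left after magnetic removal of SSEA1-positive germ cells, a gate described for E12.5. Magnetic sorting is also named for E13.5 gonads in the study's single-cell work, and how many animals were pooled is not given. One 10x library of V580_D6 cells was analysed here, of a run that the study describes as done in triplicate. GSCLCs are defined there as the SSEA1-negative cells of the cultures, and whether SSEA1-positive cells were removed before each culture library is not stated. Nothing in the labels says that replicates came from separate cultures or animals, so the p-values below measure the spread between these libraries, which may be technical.

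Cytosine methylation in mammals sits mostly at CG dinucleotides. Dnmt3a and Dnmt3b place it on unmethylated DNA, Dnmt3l stimulates both, and after replication Uhrf1 recognises hemimethylated CG sites and brings Dnmt1 to them. Tet enzymes oxidise 5-methylcytosine in a reaction that needs iron, 2-oxoglutarate and oxygen and is stimulated by ascorbate (Vc), and Tdg excises the later oxidation products. Tet1, Dnmt3b and Dnmt3l are known as abundant in pluripotent cells, and Tet2, Tet3 and Dnmt3a as enzymes of many somatic tissues. That split is not strict, since Tet2 and Dnmt3a were also read in the ESC cultures below.

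The labels were set against marker genes before the enzymes were read. The 12 gonadal somatic markers summed to 3168 counts-per-million (CPM, unscaled) at E12.5 and 1437 CPM at P6w, with none at 0, and to 911 FPKM in E12.5_GC against 228 FPKM in V580_D10 and 45.3 FPKM in V580_D4. The 2 libraries of E12.5 held 103 and 97 reads of Ddx3y, a Y-linked gene, and each library of another stage held 0 to 4, although all stages are labelled female. Amh, a Sertoli cell hormone that granulosa cells also make, stood at 8.80 and 11.8 CPM at E12.5, 0.674 and 0.405 CPM at E13.5, and 150 and 64.4 CPM at P6w, and the 8 Sertoli and Y-linked genes summed to 110 CPM at E12.5, led by Ptgds, and 33.2 CPM at E13.5, led by Sox9, with Kdm5d and Uty at 0. At E16.5 Sox9 alone stood at 136 and 133 CPM, above the sum of the 8 genes at E12.5. Whether male cells were among those of the E12.5 libraries was not tested. Each comparison with E12.5 rests on the 2 libraries of E12.5, whereas the comparisons among E13.5, E16.5 and P6w do not. Erythroid genes, led by Hbb-y, summed to 15479.7 CPM at E12.5, 25186 CPM at E13.5, 9367 CPM at E16.5 and 194 CPM at P6w, and in E12.5_GC erythroid genes ranged from 1038 to 4435 FPKM. The 16 germline genes on the list of promoter-methylated genes, such as Dazl and Tex101, summed to 25.4 CPM at E12.5 and 475 CPM at E16.5. Oocyte markers, led by Zp3, reached 117 CPM at P6w. In these bulk libraries, fewer cells of a type and less RNA per cell cannot be told apart, and the part that admixed cells play in the changes below was not tested.

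In the GENCODE annotation of GRCm38, Tet1 lies at chr10:62804570-62908996, Tet2 at chr3:133463679-133545139 and Tet3 at chr6:83362373-83459084, all on the minus strand, and Tdg at chr10:82629828-82650799 on the plus strand. Dnmt1 lies at chr9:20907209-20959888 on the minus strand and Uhrf1 at chr17:56303321-56323486 on the plus strand. Dnmt3a lies at chr12:3806007-3914443, Dnmt3b at chr2:153649450-153687730 and Dnmt3l at chr10:78041947-78063622, all on the plus strand. Levels are over whole genes, and processed copies are annotated for Dnmt3a (Dnmt3a-ps1), Dnmt3l (Dnmt3l-ps1) and Tdg (Tdg-ps and Gm9855), with which those genes may share reads.

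Promoters of 3 members are printed to show how differently the enzymes' start regions are built; each is 300 bases from RefSeq (GRCm38.p6), from 250 bases before to 50 after a listed start, 5′ to 3′ on the gene's strand, with every CG in capitals. Dnmt1 (chr9:20952574-20952873, minus strand) stands for the maintenance pair, and Dnmt3b (chr2:153649199-153649498, plus strand) and Dnmt3l (chr10:78042037-78042336, plus strand) are the 2 members whose levels moved over the widest range.
Dnmt1: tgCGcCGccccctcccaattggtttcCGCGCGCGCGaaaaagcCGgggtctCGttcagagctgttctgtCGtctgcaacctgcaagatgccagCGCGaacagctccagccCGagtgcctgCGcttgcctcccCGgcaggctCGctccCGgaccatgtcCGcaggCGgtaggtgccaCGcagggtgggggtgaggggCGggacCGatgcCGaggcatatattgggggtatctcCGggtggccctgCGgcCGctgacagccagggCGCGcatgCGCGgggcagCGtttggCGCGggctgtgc
Dnmt3b: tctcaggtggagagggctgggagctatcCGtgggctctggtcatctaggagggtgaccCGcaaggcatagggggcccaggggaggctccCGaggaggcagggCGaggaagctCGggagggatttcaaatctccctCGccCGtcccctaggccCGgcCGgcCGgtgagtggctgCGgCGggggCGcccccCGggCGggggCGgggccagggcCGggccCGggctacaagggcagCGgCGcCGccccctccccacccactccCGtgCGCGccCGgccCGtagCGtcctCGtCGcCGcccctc
Dnmt3l: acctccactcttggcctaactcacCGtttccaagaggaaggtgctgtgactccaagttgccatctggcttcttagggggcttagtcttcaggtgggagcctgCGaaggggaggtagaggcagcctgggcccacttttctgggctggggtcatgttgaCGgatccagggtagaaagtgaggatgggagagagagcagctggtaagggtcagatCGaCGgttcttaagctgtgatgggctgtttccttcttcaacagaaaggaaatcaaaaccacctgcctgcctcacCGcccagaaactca
Dnmt1 held 33 CG and Dnmt3b 30 CG in this window, and the Dnmt3l window held 6, beside a median of 7 over 32851 RefSeq promoters. The other Dnmt1 starts listed held 12 and 2 CG, and the other Dnmt3l starts 4 and 3. Tet2 was the richest of the 9, with 57 CG, more than 99.8% of promoters, and Tet1, Tet3 and Tdg held 17, 22 and 26. On both strands, the E2F-type letters TTTNNCGC were found 3 times in the Dnmt1 window and once in each of 2 Uhrf1 windows, and in none of the other members' windows, while 5.17% of all promoters held them. The GC-box letters GGGCGG were found 4 times in the Dnmt3b window, 2 times in that of Dnmt1 and once in that of Dnmt3l, and most often in a Dnmt3a window (7 times), against 35.7% of promoters with a match. AGGTCA, a half-site of nuclear receptors, was matched in the Tet1 window and in 1 window each of Uhrf1 and Dnmt3a, against 16.3% of promoters. These matches describe letters, not bound sites.

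**Figure D1:**
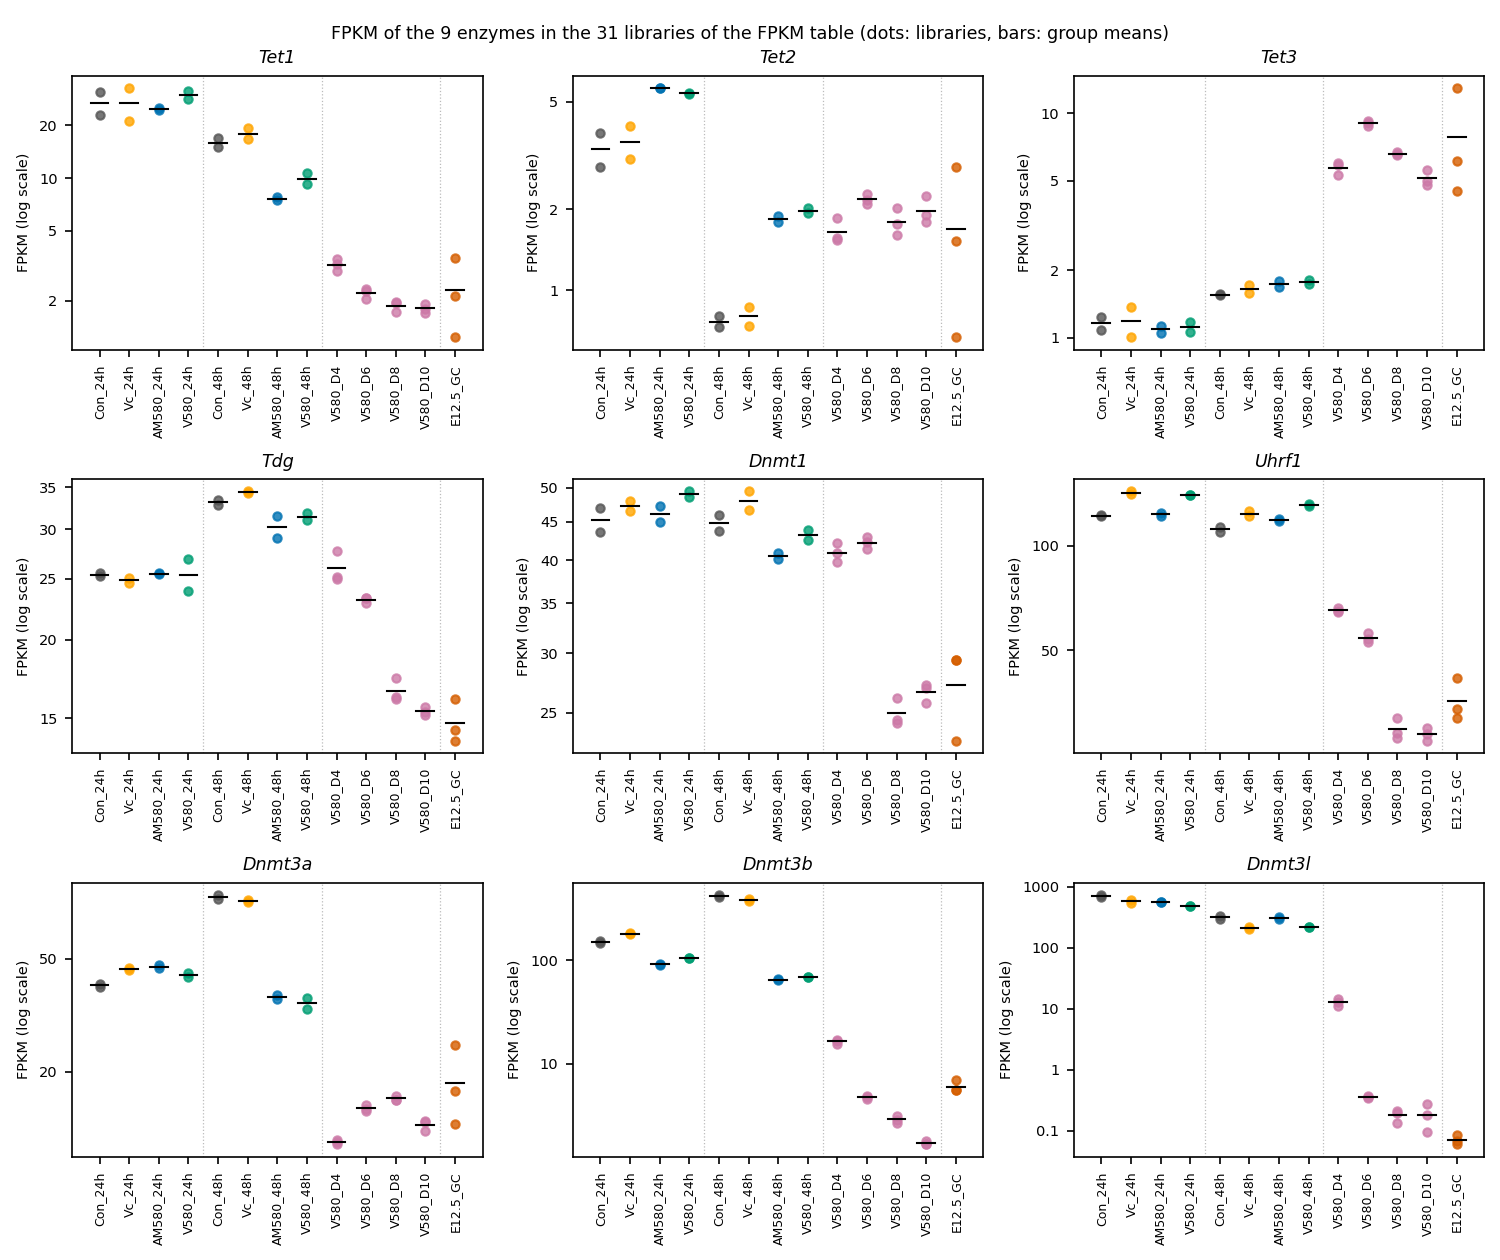
Level of each of the 9 enzymes in all 31 libraries of the FPKM table (y axis, FPKM on a log scale; x axis, group in order of treatment, hour and day); points are libraries and bars are group means. Dnmt3l spans from 732 FPKM in a Con_24h library to 0.0602 FPKM in an E12.5_GC library, and Dnmt1 stays between 22.9 and 49.4 FPKM throughout.

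Over the culture and gonad libraries, Dnmt3l, Dnmt3b, Uhrf1 and Tet1 were high in early ESC cultures and low in later ones, Tet3 was the reverse, and Dnmt1 and Tdg kept the narrowest range. FPKM is a level per kilobase of transcript and relative to the number of fragments in the library. Genes are ordered on it here, but orders and shares also depend on the length assigned to each gene. Isoforms were not told apart. In Con_24h the order from the top was Dnmt3l, Dnmt3b, Uhrf1, Dnmt1 and Dnmt3a, then Tet1 and Tdg, then Tet2 and Tet3. Dnmt3l stood at 686 and 732 FPKM, Dnmt3b at 151 and 145 FPKM, and Uhrf1 at 123 and 122 FPKM. Dnmt1 (47.0 and 43.6 FPKM) lay above Dnmt3a (39.8 and 40.9 FPKM), whereas Tet1 (30.7 and 22.9 FPKM) and Tdg (25.5 and 25.2 FPKM) overlapped. By V580_D10 the order had turned, with Uhrf1 (27.4 to 29.8 FPKM) and Dnmt1 (25.7 to 27.2 FPKM) on top, Tdg (15.2 to 15.6 FPKM) and Dnmt3a (12.3 to 13.4 FPKM) next, and Dnmt3l last at 0.0964 to 0.272 FPKM. Of the summed FPKM of the 3 Tet genes, Tet1 made up 85.6% in Con_24h, 30.4% in V580_D4 and 16.6% in V580_D6. Tet3 made up 3.74%, 54.1% and 67.1% in the same groups. In E12.5_GC Tet1 made up 19.8% and Tet3 66.5%. The E12.5 libraries of the gonadal stages differed, with Tet1 at 44.7% and Tet3 at 31.9% of the Tet sum per kilobase of exon. Which of the 2 gonadal patterns is typical of E12.5 was not tested. Dnmt3b made up 78.6% of the Dnmt3a and Dnmt3b sum in Con_24h, 59.2% in V580_D4, 24.3% in V580_D6 and 11.8% in V580_D10, beside 25.5% in E12.5_GC.

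In gonadal somatic cells, where the study asked how GSCs change over development, 7 of the 8 tested enzymes fell from E12.5 to E13.5, the Tet genes by the widest margin as long as transcript length was left uncorrected. Levels here are CPM scaled by TMM, which moves the median log2 ratio of all genes between E13.5 and E12.5 from -0.29 to 0.03. Tet1 stood at 34.9 and 37.8 CPM at E12.5, 14.5 and 11.7 CPM at E13.5, 34.7 and 26.0 CPM at E16.5, and 26.8 and 27.5 CPM at P6w. E13.5 was the low stage for Tet1 and overlapped no other. Tet3 stood at 24.2 and 32.2 CPM at E12.5, 9.20 and 9.13 CPM at E13.5, 22.5 and 16.2 CPM at E16.5, and 19.6 and 18.4 CPM at P6w. Tet2 stood at 19.8 and 21.7 CPM at E12.5, 7.98 and 6.79 CPM at E13.5, 24.3 and 17.5 CPM at E16.5, and 7.92 and 7.91 CPM at P6w, so that it was low at both E13.5 and P6w. From E12.5 to E13.5 the log2 fold changes were -1.47 ± 0.18 (SE) for Tet1, -1.49 ± 0.20 for Tet2 and -1.62 ± 0.20 for Tet3 (edgeR, adjusted p = 1.97e-05, 4.75e-05 and 2.35e-05). Tdg fell by 0.72 (edgeR, adjusted p = 0.00311), Uhrf1 by 0.71 (adjusted p = 3.76e-04), Dnmt3a by 0.64 (adjusted p = 3.23e-04) and Dnmt1 by 0.42 (adjusted p = 0.0138). Dnmt3b, at -0.30, did not pass (edgeR, adjusted p = 0.162), and Dnmt3l, with 0 to 9 counts per library, was too low to be tested at any stage. The share of all 16398 tested genes that fell was 22.1%, and the median log2 fold change was -0.72 over the 8 enzymes and 0.03 over all genes.

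**Figure D2:**
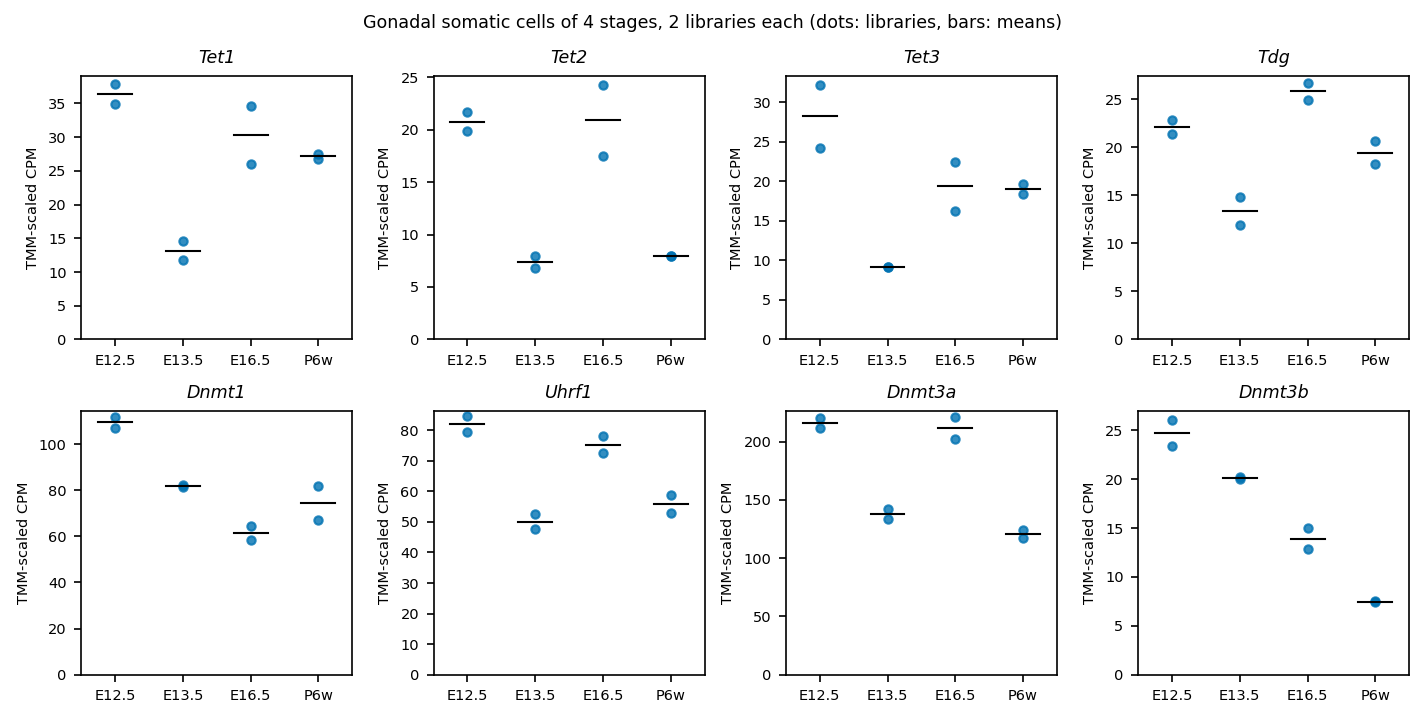
Level of the 8 tested enzymes in the 8 libraries of gonadal somatic cells (y axis, TMM-scaled counts-per-million from 0; x axis, stage); points are libraries and bars are group means. The Tet genes dip at E13.5, where Tet1 reads 14.5 and 11.7, and Dnmt3b steps down to 7.43 and 7.49 at P6w.

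Transcript length moved with this step. The rank correlation of a gene's level in a library, relative to the mean of all libraries, with its exon length was 0.31 and 0.32 in the E12.5 libraries, -0.47 and -0.48 in the E13.5 libraries, 0.27 and 0.06 at E16.5, and 0.09 and 0.07 at P6w, across genes of 1 library. Tet1, Tet2, Tet3 and Dnmt3a have 15457, 16870, 16695 and 16642 bases of exon, and Uhrf1, Dnmt3b, Tdg and Dnmt1 have 4259, 5106, 5374 and 7377. With the length trend removed from each library, an alternative set beside the comparison without it, Tet1, Tet2 and Tet3 stood at -0.65, -0.63 and -0.77 (edgeR, adjusted p = 0.00454, 0.0131 and 0.00461). Uhrf1 stayed at -0.71 and Tdg at -0.56, while the Dnmt1 value became -0.03 and that of Dnmt3a turned to 0.21 (edgeR, adjusted p = 0.238). The Dnmt1 call from E12.5 to E13.5 was also lost without any one of the 4 libraries (-0.46 to -0.39), and the Tdg call without E13.5 replicate 1 (-0.56).

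**Figure D3:**
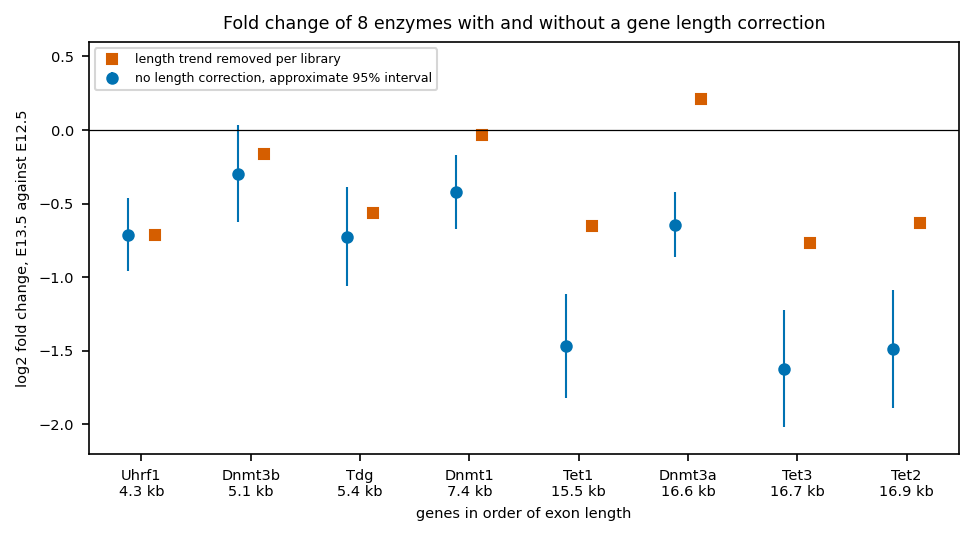
Log2 fold change of each tested enzyme between E13.5 and E12.5 (x axis, enzyme ordered by exon length; y axis, log2 fold change) as fitted, with bars of approximate 95% intervals, and with the length trend of each library removed. Tet1 moves from -1.47 to -0.65, whereas Dnmt3a moves from -0.64 to 0.21.

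Between E13.5 and E16.5 the oxidation arm rose again. Tet1 rose by 1.21, Tet2 by 1.50, Tet3 by 1.08 and Tdg by 0.95 on the log2 scale, and Uhrf1 (0.59) and Dnmt3a (0.62) rose with them, whereas Dnmt1 fell by 0.42 (edgeR, adjusted p = 0.0130) and Dnmt3b fell by 0.53 (adjusted p = 0.0163). All genes were higher in 28.7% and lower in 25.4% of tests. With the length trend removed, Tet3 stood at 0.27 and Dnmt3a at -0.16, neither past the threshold. The Dnmt1 call was lost without E13.5 replicate 1 (-0.42), and that of Dnmt3b without E13.5 replicate 1 or 2 or E16.5 replicate 2 (-0.55 to -0.42) or with the sequencing lane as a term (-0.43).

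Against E12.5, Dnmt1, Dnmt3b and Tet3 fell at E16.5, and 6 of 8 enzymes fell at P6w. Dnmt1 stood at 107 and 112 CPM at E12.5, 82.4 and 81.3 CPM at E13.5, 58.2 and 64.6 CPM at E16.5, and 81.7 and 67.3 CPM at P6w. Dnmt3b stood at 26.1 and 23.4 CPM, 20.2 and 20.1 CPM, 15.0 and 12.9 CPM, and 7.43 and 7.49 CPM in the same order. The Dnmt3b libraries of each stage lay below those of the stage before, although the step from E12.5 to E13.5 did not pass. At E16.5 against E12.5 Dnmt1 fell by 0.84 (edgeR, adjusted p = 1.36e-04) and Dnmt3b by 0.83 (adjusted p = 0.00146), while 17.1% of all genes fell. Tet3 fell by 0.54 (edgeR, adjusted p = 0.0393), a call that was lost without E12.5 replicate 2 (-0.32), without E16.5 replicate 2 (-0.33), with a lane term (-0.33) and with only the 2 stages in the fit (-0.53). Tet1 (-0.26), Tet2 (0.01), Tdg (0.22), Uhrf1 (-0.12) and Dnmt3a (-0.03) did not pass at E16.5. At P6w against E12.5 Dnmt3b fell by 1.73 (edgeR, adjusted p = 1.41e-06), Tet2 by 1.39 (adjusted p = 5.11e-05), Dnmt3a by 0.84 (adjusted p = 1.78e-05), Dnmt1 by 0.56 (adjusted p = 0.00199) and Uhrf1 by 0.55 (adjusted p = 0.00200), while 27.5% of all genes fell. The sixth, Tet3, fell by 0.57 (edgeR, adjusted p = 0.0243), but its call was lost without E12.5 replicate 2, P6w replicate 1 or P6w replicate 2 (-0.63 to -0.36), with the length trend removed (-0.22) and with a lane term (-0.10), which also ended the Uhrf1 call (-0.45). Tet1 (-0.42) and Tdg (-0.19) did not pass.

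From E16.5 to P6w, 4 enzymes fell, beside 29.8% of all genes. Tet2 fell by 1.40 (edgeR, adjusted p = 4.19e-05), Dnmt3b by 0.90 (adjusted p = 7.84e-04), Dnmt3a by 0.81 (adjusted p = 2.21e-05) and Uhrf1 by 0.43 (adjusted p = 0.00966), the last not without P6w replicate 2 (-0.36). Tet1 (-0.16), Tet3 (-0.03), Tdg (-0.41) and Dnmt1 (0.28) did not pass. Dnmt3a stood at 203 and 221 CPM at E16.5 and 124 and 118 CPM at P6w. Per kilobase of exon, Uhrf1 (19.2 CPM per kb), Dnmt1 (14.8) and Dnmt3a (13) led at E12.5, Dnmt3b (4.84) and Tdg (4.12) followed, and the Tet genes (1.23 to 2.35) came last. Dnmt3l reached at most 9 counts, in a P6w library. P6w libraries shared a lane with the second E16.5 library and not with the first or with E12.5 and E13.5, so the lane term rests on the 2 libraries of E16.5.

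The genes that work with the 9 enzymes are given by list, beside 22.1% of all genes that fell and 23.8% that rose from E12.5 to E13.5. All values here come from the fit without a length correction. Level followed exon length with opposite signs in the E12.5 and E13.5 libraries, and its part in the partner values was not tested. Of 12 partners in de novo methylation and repression, 9 fell and 1 rose (median -0.64), among them Smchd1, a noncanonical SMC protein of the inactive X, from 44.0 to 17.8 CPM, and Zfp445, a zinc finger protein of imprinted loci, from 98.1 to 40.8 CPM. Of 10 maintenance partners 5 fell and 1 rose, and the paralogue Uhrf2 went from 34.7 to 14.0 CPM. Of 20 partners in demethylation 3 fell and 7 rose, with Ogt, the glycosyltransferase that binds Tet proteins, from 246 to 125 CPM and Gadd45b, a stress-induced relative of Gadd45a, from 35.1 to 60.6 CPM. Of 18 replication genes 7 fell and 1 rose (median -0.39), and their sum went from 2484 CPM at E12.5 to 1548 CPM at E13.5, 1562 CPM at E16.5 and 1617 CPM at P6w. At P6w 9 of 12 de novo and repression partners were lower than at E12.5, beside 27.5% of all genes lower and 25.4% higher, with Zfp57, which guards imprints, at 47.7 CPM at E12.5 and 7.66 CPM at P6w. Germline genes that promoter methylation silences in somatic cells rose in 11 of 16 cases from E12.5 to E13.5. From E13.5 to E16.5 they rose in 14 of 16 cases, when 28.7% of all genes rose. At those 2 stages Sycp1, of the synaptonemal complex, stood at 1.80 and 68.9 CPM. Germ cell markers summed to 47.8 and 113 CPM there, without TMM scaling.

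In untreated ESCs leaving 2i + LIF, 8 of the 9 enzymes changed between 24 h and 48 h, and the de novo enzymes parted ways. Dnmt3b stood at 151 and 145 FPKM at 24 h and 403 and 423 FPKM at 48 h. Dnmt3a stood at 39.8 and 40.9 FPKM, then 81.5 and 84.0 FPKM. Dnmt3l stood at 686 and 732 FPKM, then 299 and 330 FPKM. On the log2(FPKM + 1) scale Dnmt3b rose by 1.47 (2.79-fold in mean FPKM, as are the folds below, limma, adjusted p = 2.79e-13), Dnmt3a rose by 1.02 (2.05-fold, adjusted p = 3.81e-11), and Dnmt3l fell by 1.17 (2.25-fold, adjusted p = 2.71e-10). Tet2 fell from 3.84 and 2.85 FPKM to 0.728 and 0.800 FPKM (log2 fold change -1.29, limma, adjusted p = 3.88e-08) and Tet1 from 30.7 and 22.9 FPKM to 16.9 and 15.0 FPKM (-0.70, adjusted p = 9.94e-04). Tdg (0.37) and Tet3 (0.24) rose and Uhrf1 fell by 0.13, while Dnmt1, at -0.01, did not pass. Of all 10644 genes tested, 32.4% rose and 33.6% fell. The Tet3 call was lost without Con_24h replicate 2 (0.19) or Con_48h replicate 1 (0.24), and that of Uhrf1 under quantile normalization (-0.05).

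The ESC state moved over the same step. All 10 tested naive pluripotency genes fell, their sum going from 1062 to 591 FPKM, and formative genes went from 12.4 to 48.4 FPKM with Fgf5 the most abundant. Fibroblast genes, a sign of feeder cells, went from 121 to 37.0 FPKM, led by Col1a1. Among the partners, Dppa3, which keeps Uhrf1 from chromatin, rose from 2.14 to 14.7 FPKM, Cdca7l, a relative of a Hells partner, from 5.47 to 17.2 FPKM, and Zfp57 fell from 65.5 to 17.6 FPKM. Of 17 demethylation partners 6 rose and 8 fell, and of 9 maintenance partners 4 rose and 2 fell, beside 32.4% of all genes that rose and 33.6% that fell.

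With Vc, which stimulates the Tet reaction, none of the 3 Tet mRNAs passed the test at 24 h or 48 h, while Dnmt3l was lower and Uhrf1 higher at both times. Tet1 stood at 30.7 and 22.9 FPKM in Con_24h and 21.2 and 32.6 FPKM in Vc_24h. Those groups overlapped fully, and the log2 difference was -0.01 ± 0.15 (SE, limma, adjusted p = 0.97). Tet2 stood at 0.07 ± 0.10 and Tet3 at 0.02 ± 0.077 at 24 h, and at 48 h Tet1, Tet2 and Tet3 stood at 0.16, 0.03 and 0.05, none past the threshold. Such a result does not show that the levels were equal, and for Tet1 at 24 h the libraries within a group lay further apart than the means of the groups. The rank correlation of level with exon length was 0.05 and -0.19 in the Con_24h libraries and -0.21 and 0.07 in the Vc_24h libraries, in the same order.

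Dnmt3l stood at 686 and 732 FPKM in Con_24h and 605 and 544 FPKM in Vc_24h, and at 299 and 330 FPKM in Con_48h and 200 and 216 FPKM in Vc_48h. Both Vc groups lay below their controls. Dnmt3l fell by 0.30 at 24 h (limma, adjusted p = 0.00449) and by 0.59 at 48 h (adjusted p = 2.93e-05). Uhrf1 stood at 123 and 122 FPKM in Con_24h and 141 and 143 FPKM in Vc_24h, then at 110 and 113 FPKM in Con_48h and 122 and 126 FPKM in Vc_48h. Uhrf1 rose by 0.22 (limma, adjusted p = 7.69e-04) and 0.15 (adjusted p = 0.0104). At 24 h Dnmt3b also rose, by 0.28 (limma, adjusted p = 3.88e-04), and Dnmt3a by 0.18 (adjusted p = 0.0136). The 24 h counts were 3 higher and 1 lower of 9, beside 7.57% and 5.98% of all genes, and the 48 h counts 1 higher and 1 lower, beside 6.37% and 6.07%. Fitted on the Con_24h and Vc_24h libraries alone, none of the 4 calls at 24 h passed in limma, whereas edgeR on fragments recovered from all libraries called 4. The Dnmt3a call was also lost without Con_24h replicate 1 (0.16), and the Uhrf1 call at 48 h without Con_48h replicate 1 or Vc_48h replicate 2 (0.12).

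Of 17 demethylation partners 4 rose with Vc at 24 h and 3 at 48 h, and none fell, beside 7.57% of all genes that rose and 5.98% that fell at 24 h, and 6.37% and 6.07% at 48 h. Idh1, which makes 2-oxoglutarate, rose from 16.4 to 25.8 FPKM at 24 h (log2 fold change 0.62, limma, adjusted p = 1.4e-06), and Idh2, its mitochondrial counterpart, from 20.4 to 27.8 FPKM at 48 h (0.43). Gadd45a, a stress-induced gene, rose by 0.39 at 24 h. Dazl, a germ cell RNA-binding protein gene with a methylated promoter in somatic cells, rose from 12.2 to 21.8 FPKM at 24 h, but Ddx4, another, fell from 12.8 to 8.59 FPKM at 48 h. Trim28, the corepressor that zinc finger proteins recruit, fell from 790 to 709 FPKM at 24 h and from 524 to 435 FPKM at 48 h. Of 3 formative genes tested, 3 fell with Vc at 24 h and 2 at 48 h, with sums of 8.65 against 12.4 FPKM and 36.6 against 48.4 FPKM.

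**Figure D4:**
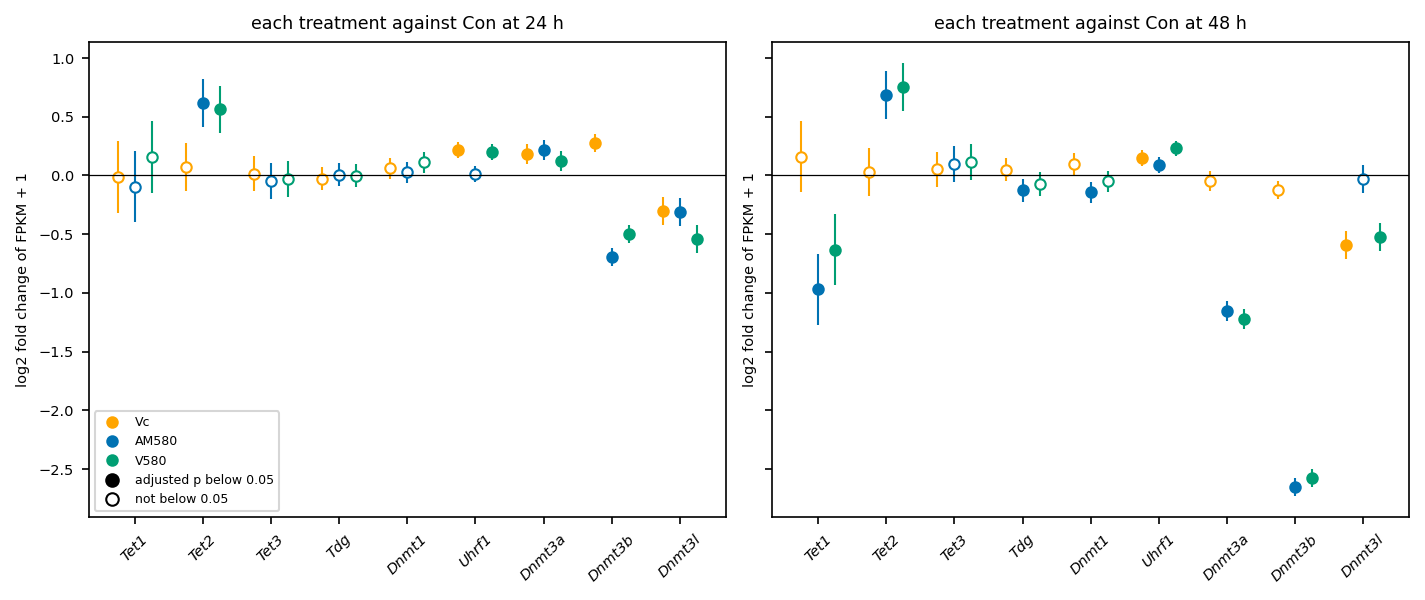
Log2 fold change of log2(FPKM + 1) for the 9 enzymes with Vc, AM580 or both against the untreated cells of the same hour (y axis, log2 fold change with approximate 95% intervals; x axis, enzyme; panels, 24 h and 48 h); filled points passed an adjusted p below 0.05. Dnmt3b reads -2.65 with AM580 and -2.57 with both at 48 h, and the Tet values with Vc lie near 0.

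With AM580, Dnmt3b and Dnmt3a stood far below their levels in untreated cells at 48 h. Dnmt3b stood at 403 and 423 FPKM in Con_48h, 65.8 and 64.1 FPKM in AM580_48h, and 69.0 and 68.1 FPKM in V580_48h. Dnmt3a stood at 81.5 and 84.0 FPKM, 36.2 and 37.2 FPKM, and 36.5 and 33.2 FPKM in the same groups. Neither group with AM580 came near its control for these genes. Dnmt3b fell 6.36-fold with AM580 (log2(FPKM + 1) fold change -2.65, limma, adjusted p = 1.91e-15) and 6.03-fold with both compounds (-2.57, adjusted p = 1.32e-15), and Dnmt3a fell by 1.15 (adjusted p = 2.16e-11) and 1.23 (adjusted p = 1.05e-11). Both comparisons share the Con_48h libraries. Dnmt3l stood at 298 and 316 FPKM in AM580_48h, beside 299 and 330 FPKM in Con_48h (log2 difference -0.03, limma, adjusted p = 0.681), but at 217 and 219 FPKM in V580_48h, where it fell by 0.52 (adjusted p = 4.11e-06).

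Tet1 and Tet2 moved in opposite directions with AM580 at 48 h. Tet1 stood at 16.9 and 15.0 FPKM in Con_48h, 7.80 and 7.46 FPKM in AM580_48h and 10.7 and 9.20 FPKM in V580_48h. Tet2 stood at 0.728 and 0.800 FPKM, 1.88 and 1.79 FPKM, and 2.01 and 1.93 FPKM. Tet1 was lower and Tet2 higher in every treated library. At 48 h Tet1 fell by 0.97 with AM580 (limma, adjusted p = 9.37e-05) and by 0.63 with both (adjusted p = 0.00293), and Tet2 rose by 0.68 (adjusted p = 5.46e-05) and 0.75 (adjusted p = 2.23e-05). Tet2 rose already at 24 h, from 3.84 and 2.85 FPKM to 5.63 and 5.62 FPKM with AM580 (0.62, limma, adjusted p = 7.28e-04) and to 5.40 and 5.35 FPKM with both (0.56, adjusted p = 8.51e-04). Tet1 did not pass at 24 h, at 24.8 ± 0.368 FPKM (SD, n = 2) with AM580 and 31.2 and 28.3 FPKM with both, beside 30.7 and 22.9 FPKM in Con_24h. Tet3 and Tdg at 24 h, and Dnmt1 at 24 h, did not pass in any of the 3 treatments.

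In counts, AM580 at 24 h raised 2 of the 9 enzymes and lowered 2, beside 7.69% and 7.16% of all genes, and both compounds raised 3 and lowered 2, beside 29.0% of all genes in either direction. At 24 h Dnmt3b fell by 0.69 with AM580 (limma, adjusted p = 1.38e-08) and by 0.50 with both (adjusted p = 2.42e-07), and Dnmt3l fell by 0.31 and 0.54. Dnmt3a rose by 0.21 with AM580 (limma, adjusted p = 0.00349) and by 0.12 with both (adjusted p = 0.0494), the latter not without any one of the 4 libraries (0.10 to 0.15), nor with a pseudocount of 0.1, no filter on low values, the length trend removed, a replicate block or only the 2 groups in the fit (0.12 in each). At 48 h AM580 raised 2 and lowered 5, beside 25.7% and 31.2%, and both compounds raised 2 and lowered 4, beside 25.9% and 31.2%. The smaller calls with AM580 at 48 h were Tdg (-0.13), Dnmt1 (-0.14) and Uhrf1 (0.09). Without Con_48h replicate 1 or AM580_48h replicate 2 all 3 were lost and 4 members were called; the Tdg call also went without Con_48h replicate 2 and the Uhrf1 call without AM580_48h replicate 1, and under quantile normalization Dnmt1 stood at -0.01 and Tdg at -0.05. The Tdg call was lost as well in edgeR on recovered fragments (-0.11) and with the length trend removed (-0.11), and that of Uhrf1 with only the 2 groups in the fit (0.09).

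Vc was also read on top of AM580. Against AM580 alone at 48 h, both compounds gave higher Uhrf1 (130 and 132 against 119 and 118 FPKM, log2 difference 0.14, limma, adjusted p = 0.00829) and lower Dnmt3l (-0.49, adjusted p = 4.94e-05), beside 8.51% of genes higher and 10.7% lower. At 24 h Uhrf1 (0.19, limma, adjusted p = 0.00168) and Dnmt3b (0.19, adjusted p = 0.00399) were higher and Dnmt3l lower (-0.23, adjusted p = 0.0207), beside 7.44% and 7.31%. Without any one of the 4 libraries the Dnmt3l call at 24 h was lost (-0.23 to -0.22), as was that of Dnmt3b without AM580_24h replicate 1 (0.18, leaving 1 member called), and the Uhrf1 call at 48 h was lost without AM580_48h replicate 2 (0.14) or V580_48h replicate 2 (0.13), leaving 1. The test of whether the 2 compounds together differed from the sum of their effects called 0 of 9 members at either time in limma, with 1 member at an unadjusted p under 0.05 each time, beside 0.0376% of all genes at 24 h and 3.61% at 48 h. edgeR on recovered fragments called 0 and 1.

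With AM580 at 48 h, when 31.2% of all genes fell and 25.7% rose, the partners were counted by list. Of 17 demethylation partners 7 fell and 3 rose, of 9 maintenance partners 4 fell and 1 rose, and of 12 de novo and repression partners 8 fell and 1 rose. Gadd45b rose from 4.48 to 16.2 FPKM while Gadd45g fell from 70.3 to 41.8 FPKM, Hells, the remodeller needed for methylation of repeats, fell from 98.4 to 70.3 FPKM, Setdb1, a histone H3K9 methyltransferase, fell from 29.7 to 21.0 FPKM, and Uhrf2 rose from 7.05 to 9.92 FPKM. Naive genes summed to 311 FPKM in AM580_48h and 316 FPKM in V580_48h against 591 FPKM in Con_48h, where Pou5f1 carried most of the sum, although 6 of the 10 tested naive genes rose with AM580. Extraembryonic endoderm genes, led by Dab2, rose in 8 of 8 cases with AM580, from 5.82 to 24.3 FPKM. Formative genes summed to 38.9 FPKM in AM580_48h and 18.9 FPKM in V580_48h. The part of these cell states in the Dnmt3b, Dnmt3a and Tet values was not tested.

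Several treatment effects differed between the hours, by a test of the difference between the 48 h and 24 h changes that was added after these values were seen. For AM580 the change at 48 h lay below that at 24 h by 1.96 for Dnmt3b, by 1.37 for Dnmt3a and by 0.87 for Tet1 on the log2 scale, and that of Dnmt3l lay 0.28 above, beside 35.0% of all genes. For both compounds the differences were -2.07 for Dnmt3b, -1.35 for Dnmt3a and -0.79 for Tet1, beside 33.9%. For Vc it was -0.40 for Dnmt3b (limma, adjusted p = 0.00106), which was higher at 24 h but stood at -0.12 at 48 h (adjusted p = 0.0517), beside 2.9% of all genes. The Dnmt3l difference was lost without Con_24h replicate 2, AM580_24h replicate 1 or 2, Con_48h replicate 1 or AM580_48h replicate 2 (0.21 to 0.28), and the Tet1 difference with both compounds without Con_24h replicate 2 (-0.58) or V580_48h replicate 2 (-0.69). Without Vc_24h replicate 2, 2 members were called for Vc.

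By day 4 of V580 the enzymes stood apart from the 48 h cultures, with 6 of 9 lower and 1 higher. The labels do not say whether the 48 h and day libraries came from the same cultures or runs. Dnmt3l stood at 217 and 219 FPKM in V580_48h and at 14.4, 12.9 and 10.9 FPKM in V580_D4, a fall of 17.1-fold in mean FPKM (log2(FPKM + 1) fold change -4.00, limma, adjusted p = 6.03e-22). Dnmt3b went from 69.0 and 68.1 FPKM to 16.7, 17.0 and 15.6 FPKM, Dnmt3a from 36.5 and 33.2 FPKM to 11.5, 11.1 and 11.3 FPKM, and Uhrf1 from 130 and 132 FPKM to 65.0, 65.9 and 64.5 FPKM. Tet1 went from 10.7 and 9.20 FPKM to 3.26, 2.94 and 3.45 FPKM, whereas Tet3 went from 1.73 and 1.80 FPKM to 5.89, 5.28 and 5.99 FPKM. Tet3 was the one member to rise (1.28, limma, adjusted p = 4.42e-06), and for these 6 genes the groups did not overlap, as for 87.5% of all genes. The log2 fold changes were -2.00 for Dnmt3b, -1.54 for Dnmt3a, -1.37 for Tet1, -1.0 for Uhrf1 and -0.27 for Tdg, the last not past the threshold under quantile normalization (-0.10). Of 11921 genes tested, 34.7% fell and 39.4% rose. Replication genes fell in 16 of 18 cases, 8 of 9 methyl-CpG readers, such as Mbd2, rose, and Dppa3 went from 7.83 to 0.632 FPKM.

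Within the V580 days Dnmt3l and Dnmt3b fell most from day 4 to day 6, Dnmt1 and Tdg fell from day 6 to day 8, and Uhrf1 fell at both steps. From day 4 to day 6 Dnmt3l fell from 14.4, 12.9 and 10.9 FPKM to 0.367, 0.346 and 0.351 FPKM, that is from 778 to 983 fragments per library to 23 to 25 (log2 fold change -3.33, limma, adjusted p = 8.01e-13). Dnmt3b fell from 16.7, 17.0 and 15.6 FPKM to 4.92, 4.81 and 4.59 FPKM (3.44-fold, limma, adjusted p = 5.52e-10). Neither gene's days overlapped, nor did those of 72.8% of all genes. Dnmt3a, the other de novo enzyme, stood at 11.5, 11.1 and 11.3 FPKM on day 4, 14.6, 15.3 and 14.8 FPKM on day 6, and 16.1 ± 0.307 FPKM (SD, n = 3) on day 8, and neither step passed (log2 fold changes 0.37 and 0.11, limma, adjusted p = 0.0522 and 0.577). Tet3 rose from 5.89, 5.28 and 5.99 FPKM to 8.75, 9.05 and 9.18 FPKM (0.57, limma, adjusted p = 0.0487) and Uhrf1 fell by 0.26 (adjusted p = 0.0209), beside 21.9% of 11512 genes that rose and 23.0% that fell. The Tet3 call was lost without any one of the 6 libraries (0.53 to 0.60) and the Uhrf1 call without V580_D4 replicate 1 or 2 or V580_D6 replicate 1 or 3 (-0.26 to -0.24). Dnmt3l passed the filter of 1 FPKM in 3 libraries through the 3 day 4 libraries alone, so that it was not tested when one of them was left out; its call was kept with no filter. Together 1 to 3 members were called without 1 library, and quantile normalization ended the Tet3 and Uhrf1 calls (0.53 and -0.14). Tet1 (-0.39), Tet2 (0.26), Tdg (-0.16) and Dnmt1 (0.04) did not pass. Fitted on these 2 days alone, 8 members passed. The rank correlation of level with exon length was 0.26, 0.27 and 0.26 in the V580_D6 libraries. It was -0.05, -0.07 and 0.02 in those of V580_D4 and -0.03, 0.10 and 0.14 in those of V580_D8. Tet3 and Dnmt3a are among the members with the longest exons. With the length trend removed, 7 members were called from day 4 to day 6.

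From day 6 to day 8, 4 enzymes fell and none rose in the fit of all days, beside 20.9% of all genes that fell. Dnmt1 went from 42.3, 42.9 and 41.4 FPKM to 26.1, 24.2 and 24.5 FPKM (log2 fold change -0.74, limma, adjusted p = 5.08e-06), and Uhrf1 from 52.6, 56.1 and 53.9 FPKM to 31.8, 28.9 and 27.8 FPKM (-0.86, adjusted p = 2.09e-06). Tdg went from 22.9, 23.3 and 23.3 FPKM to 17.4, 16.2 and 16.1 FPKM (-0.46, limma, adjusted p = 4.16e-05), and Dnmt3b fell by 0.56 (adjusted p = 4.09e-05). Fitted on these 2 days alone, where Dnmt3l was too low to be tested, the other 8 members passed. Among them was Dnmt3a, which was higher on day 8 (16.1 FPKM) than on day 6 (14.9 FPKM). For the 4 genes that fell the days did not overlap, as for 68.9% of all genes. Nor did they for Tet1, Tet2, Tet3, Dnmt3a and Dnmt3l. Tet1 (-0.17), Tet2 (-0.19), Tet3 (-0.40) and Dnmt3l (-0.20) did not pass in the fit of all days. Of all genes 20.3% rose. Of 18 replication genes 17 fell, with a median of -0.56 against -0.02 over all genes, and their sum went from 670 to 448 FPKM. Of 9 maintenance partners 7 fell and 1 rose, with Pcna, the sliding clamp that binds Dnmt1, from 98.1 to 64.2 FPKM and Hells from 15.6 to 10.1 FPKM. Fibroblast genes, which are also mesenchymal, went from 158 FPKM on day 6 to 443 FPKM on day 8 and 1052 FPKM on day 10. From day 8 to day 10 Dnmt3b alone passed, from 2.85, 2.72 and 3.17 FPKM to 1.69, 1.70 and 1.82 FPKM (-0.51, limma, adjusted p = 1.47e-04), beside 15.0% of all genes that fell.

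Set beside gonadal cells, the V580 cultures lay above E12.5_GC on days 4 and 6 for Uhrf1, Dnmt1 and Tdg. The 4 comparisons share the E12.5_GC libraries, whose values are given first. Uhrf1 stood at 41.6, 33.7 and 31.8 FPKM in E12.5_GC, and the cultures were higher on day 4 (log2 difference 0.86) and day 6 (0.60) and lower on day 8 (-0.26, limma, adjusted p = 0.0147) and day 10 (-0.30, adjusted p = 0.00513). Dnmt1 stood at 29.4, 22.9 and 29.4 FPKM and was passed by days 4 (0.58) and 6 (0.62), while days 8 and 10 lay within its range. Tdg stood at 16.1, 13.8 and 14.4 FPKM and was exceeded by days 4 (0.78), 6 (0.62) and 8 (0.16, limma, adjusted p = 0.0398). Dnmt3b stood at 5.57, 5.62 and 6.92 FPKM and was exceeded on day 4 (1.31) but lay above days 6 (-0.28, limma, adjusted p = 0.00441), 8 (-0.84) and 10 (-1.36). Dnmt3l had 4 to 6 fragments per E12.5_GC library, and was higher on day 4 (3.67) on the log2(FPKM + 1) scale. On day 6 it had 23 to 25 fragments per library (0.34). Dnmt3l passed the filter on low values through day 4 alone, so its day 4 call rests on the group where it was high. Its day 6 value, like those of days 8 and 10, was tested only because day 4 passed that filter, so no difference is read from it. With only the 2 groups compared in the fit, the calls of Uhrf1 on days 8 and 10, Dnmt3b on day 6 and Tdg on day 8 were lost and Dnmt3l on day 6 was not tested, and quantile normalization also ended that of Uhrf1 on day 8 (-0.17), as removing the length trend did that of Tdg on day 8 (0.12).

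The Tet genes and Dnmt3a varied most within E12.5_GC. Tet3 stood at 6.10, 4.49 and 12.9 FPKM, Tet2 at 1.52, 0.670 and 2.86 FPKM, Tet1 at 2.14, 1.24 and 3.50 FPKM, and Dnmt3a at 17.1, 13.1 and 24.8 FPKM. The third library was the highest and the second the lowest for all 4 genes, which have the longest exons, and the rank correlation of level with exon length was -0.11, -0.35 and 0.23 in the 3 libraries. Tet1 on day 4 was called higher (0.41, limma, adjusted p = 0.0394), a call lost without E12.5_GC replicate 1 or 2 or V580_D4 replicate 1 or 3 (0.16 to 0.41) and in edgeR on recovered fragments (0.49). Dnmt3a was lower on day 4 (-0.61, limma, adjusted p = 0.00167) and day 10 (-0.42, adjusted p = 0.0182), the latter not without V580_D10 replicate 1 (-0.38). Those calls of Tet1 on day 4 and Dnmt3a on day 10 were also lost with only the groups compared in the fit. Day 4 had 6 members higher and 1 lower, beside 37.2% and 34.3% of all genes, and day 6 had 4 and 1, beside 35.0% and 32.0%. The 6 on day 4 and the 4 on day 6 include Dnmt3l, which was tested only because day 4 passed the filter. Day 8 had 1 and 2, beside 32.6% and 30.5%, and day 10 had 3 lower, beside 33.2%. Without E12.5_GC replicate 2 the day 8 count became 5 and the day 10 count 6, without E12.5_GC replicate 3 the day 6 count became 8, and without V580_D8 replicate 3 the day 8 count became 1. On day 8 the Tdg call was lost without 5 of the 6 libraries (0.11 to 0.18), all but E12.5_GC replicate 1, and the Uhrf1 call without E12.5_GC replicate 1 (-0.15) or V580_D8 replicate 3 (-0.22).

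Across the 31 libraries of the FPKM table, which share the split between ESC-like and later cultures, most pairs of the enzymes ran together, Tet3 ran against them and Tet2 followed neither closely. Pearson correlations of log2(FPKM + 1) were 0.960 between Uhrf1 and Dnmt3l, 0.946 between Tet1 and Dnmt3l, 0.924 between Dnmt3a and Dnmt3b, and 0.914 between Dnmt1 and Uhrf1. Tet3 stood at -0.943 with Dnmt3l and -0.903 with Tet1. Tet2 stood between -0.30, with Tet3, and 0.46, with Tet1. Among 7085 other genes, the one most like Dnmt3l was Dppa4 (0.996), and that most like Dnmt3b was Larp7 (0.988). Lig1, the ligase that joins Okazaki fragments, followed Uhrf1 at 0.987, next to Nup93 at 0.988, and Dna2, a nuclease of replication, followed Dnmt1 at 0.953. Tet3 was most like Plagl2 (0.985) and Tdg most like Ndc1 (0.982), while Tet2 had its nearest gene at 0.899 (1810013L24Rik).

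**Figure D5:**
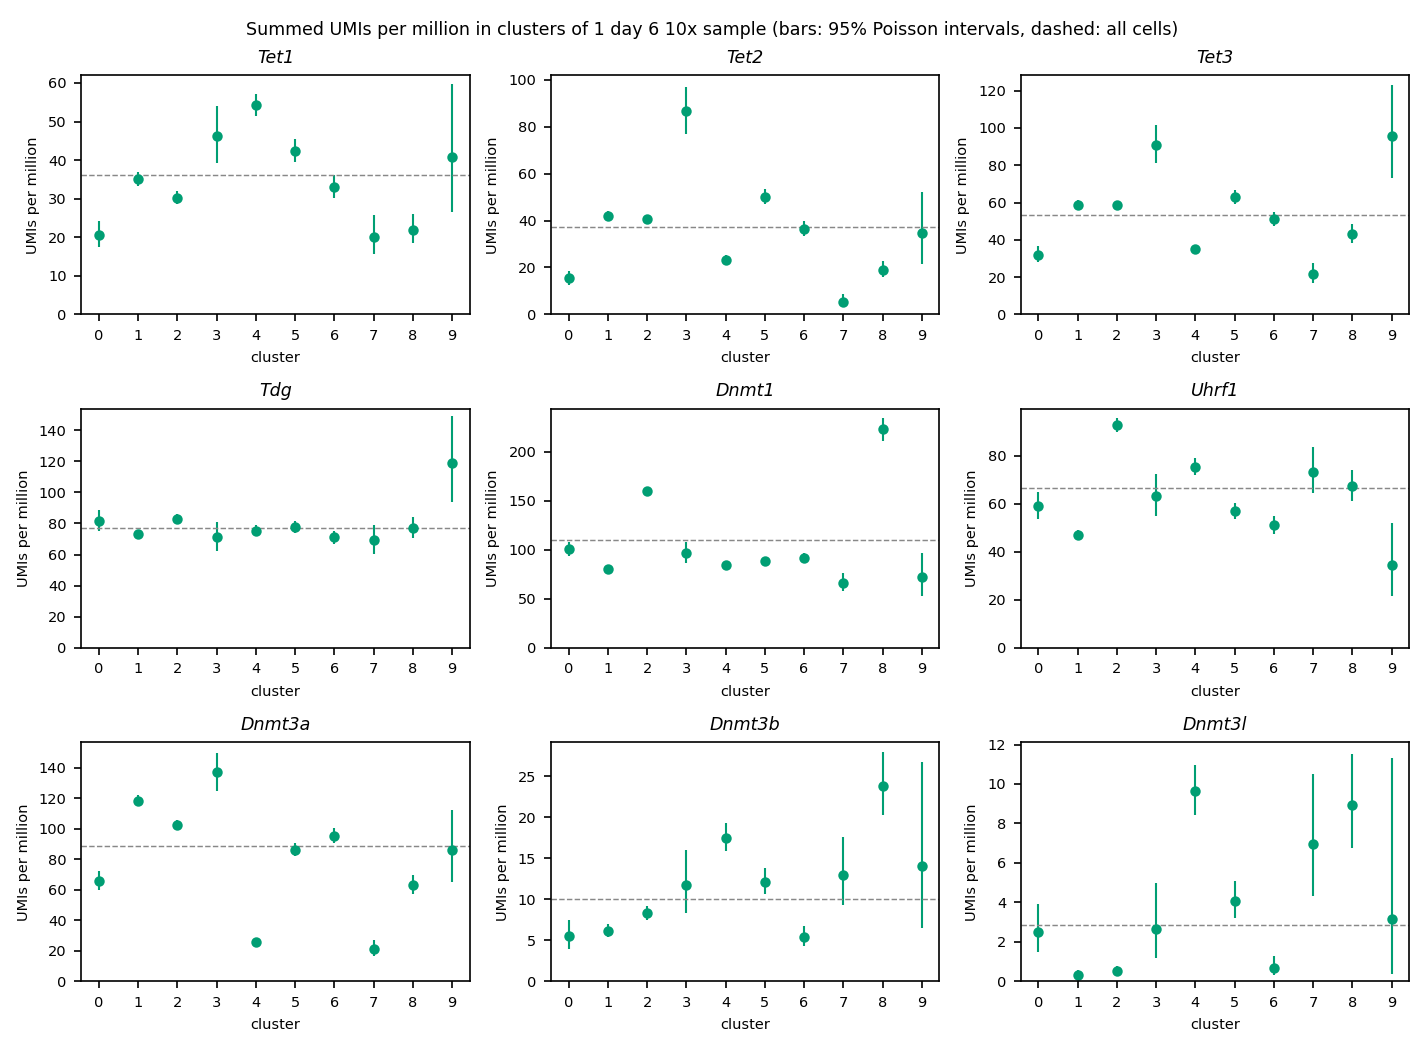
Level of each enzyme in clusters 0 to 9 of the 10x library of V580_D6 cells (x axis, cluster; y axis, CPM of summed UMI counts, from 0); the dashed line is the level over all cells and bars are 95% Poisson intervals, which cover counting error only. Dnmt3a reads 25.6 in cluster 4 and 119 in cluster 1, and Dnmt1 reads 223 in cluster 8.

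In single cells of V580_D6 all 9 mRNAs were detected, and the clusters differed in which de novo and oxidation enzymes they carried. The library had 15412 barcodes, of which 15315 passed limits of 200 detected genes or more and a mitochondrial share of no more than 40%, with a median of 9281 UMIs; doublets were not removed. With 1 library there is no replicate and no test, and intervals are 95% Poisson intervals on summed UMIs. Over all cells Dnmt1 stood at 110 CPM (108 to 112), Dnmt3a at 88.7, Tdg at 77.0, Uhrf1 at 66.7, Tet3 at 53.3, Tet2 at 37.4, Tet1 at 36.1, Dnmt3b at 9.99 and Dnmt3l at 2.86 CPM, the last from 466 UMIs. The 3′ tags of this assay are not divided by length. The share of background RNA in the droplets was not estimated, so low levels, such as Dnmt3l in cluster 1 (14 UMIs), may be background.

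Cluster 1, mesothelial-like by 4 of 6 markers and led by Igfbp5 and Upk3b (3306 cells), and cluster 4, extraembryonic endoderm-like by 7 of 7 markers (1292 cells), were set side by side as clusters named from their markers. Dnmt3a stood at 119 CPM (115 to 122) in cluster 1 and 25.6 CPM (23.6 to 27.7) in cluster 4. Tet2 (42.0 and 23.2 CPM) and Tet3 (58.7 and 35.0 CPM) were likewise higher in cluster 1. Tet1 (35.0 and 54.3 CPM), Dnmt3b (6.13 and 17.5 CPM) and Dnmt3l (0.332 and 9.63 CPM) were higher in cluster 4, where Dnmt3l reached its highest level outside the 23 cells of cluster 10. Uhrf1 (47.0 and 75.5 CPM) was also higher there, and Dnmt1 (80.7 and 84.5 CPM) had overlapping intervals. Cluster 7, led by Cited1 and S100g with a median of 2423 UMIs, was low in Dnmt3a as well (21.1 CPM) and had the lowest Tet2 (5.36 CPM).

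Uhrf1 was highest in the cluster with the highest sum of replication genes, and Dnmt1 was highest in another. Cluster 2, led by Mki67 and Aspm (2325 cells), held Dnmt1 at 160 CPM (156 to 164) and Uhrf1 at 92.9 CPM (90.0 to 95.8), with replication genes summing to 2989 CPM against 1841 CPM over all cells. Cluster 8, led by Rhox9 and Sct (657 cells, median 3022 UMIs), held Dnmt1 at 223 CPM (211 to 234) and Dnmt3b at 23.8 CPM, its highest level among clusters 0 to 9, but Uhrf1 at 67.4 CPM and replication genes at 1641 CPM. Cluster 3, with 15.7% mitochondrial counts and a median of 2025 UMIs, had Tet2 at 86.7 CPM and Tet3 at 91.1 CPM. Tdg varied least, between 69.4 and 82.9 CPM over clusters 0 to 8, and stood at 119 CPM (93.9 to 149) in the 66 neuronal-like cells of cluster 9. With finer clustering or stricter cell filters the highest level in any cluster rose to 110 CPM for Tet1, 41.5 CPM for Dnmt3b and 24.3 CPM for Dnmt3l, so these extremes depend on how cells were grouped. Clusters were built on 2000 variable genes of the same cells, so these differences are descriptions.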

How the data were processed

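According to the labels, bulk libraries were made from mRNA purified with poly-T beads. According to the labels and the study's methods, the authors aligned paired reads to mm10 with HISAT2 and counted them per gene with featureCounts; RSEM, SAMtools, FastQC and Trim Galore are also named in the submitters' processing notes, without versions. The deposited count table holds raw read counts for the 4 gonadal stages (12694769 to 22259044 counts per library, median 18789308). The deposited FPKM table holds FPKM computed by the authors for 31 libraries. Its columns headed C match the sample descriptions of Vc, and those headed X580 were read as AM580, the one treated group left without a column. Of its values worth up to 2000 fragments, 96.1% came out within 0.05 of a whole number of fragments when multiplied by exon length and the library's step, and the depth recovered was 16442639 to 28312704 fragments (median 21053516). The deposited 10x table holds UMI counts from Cell Ranger. The FPKM table covers fewer genes than the count table. Levels were not compared across tables, and only shares of the Tet sum within E12.5 libraries were set side by side. A table of 10 columns of sorted germ cells from aggregates was not used here.

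Counts were tested with edgeR 4.0.16 (quasi-likelihood, TMM, filterByExpr, all 8 libraries in 1 fit). FPKM was tested as log2(FPKM + 1) with limma 3.58.1 among genes with at least 1 FPKM in 3 libraries (days) or 2 libraries (treatments), in 1 fit per experiment; fold changes on this scale understate the change of low genes. A call is a Benjamini-Hochberg adjusted p below 0.05 over all genes tested. DESeq2 1.42.0, edgeR on recovered fragments, pseudocount 0.1, other filters, quantile normalization, a length trend, a lane term, a replicate block and leaving out each library were the alternatives. The labels do not say that replicate numbers mark shared cultures or animals. Among groups of 3 libraries, the deviations of same-numbered libraries correlated over 0.1 in every pair for E12.5_GC with V580_D4 alone. Counts of the 10x cells were normalized to 10000 per cell and clustered with scanpy 1.11.5 (2000 variable genes, 20 components, 20 neighbours, Leiden resolution 0.5), and levels are summed UMIs scaled to CPM. The fits were tested on simulated data before use. The computations ran in R 4.3.3 and Python 3.11.15.

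The 9 members and the 18 gene lists were chosen with earlier results of these data known. All 9 members entered every comparison (Dnmt3l was too low for a test at the gonadal stages), and of those not called a part is printed; from the 7 lists of genes that work with them, the called genes with the 2 largest rises and 2 largest falls, a mean of at least 5 CPM or FPKM and no overlap between groups could be named, and a part of these is printed. The genes nearest to each member were taken among genes with a mean of at least 5 FPKM. They are printed for some members, and the rest are not reported here. RefSeq promoters of GRCm38.p6 were matched by symbol for all 9 members.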

Additional observations from a re-analysis of the deposited data

Results flagged for a closer look

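For 8 pairs of a member and a treatment, the change at 48 h differed from the change at 24 h in a test of that difference (limma, adjusted p below 0.05), with both changes taken against the untreated cells of the same hour. With AM580 the difference on the log2(FPKM + 1) scale was -1.96 for Dnmt3b, -1.37 for Dnmt3a, -0.87 for Tet1 and 0.28 for Dnmt3l. With both compounds it was -2.07 for Dnmt3b, -1.35 for Dnmt3a and -0.79 for Tet1. With Vc it was -0.40 for Dnmt3b. The AM580 differences and those with both compounds share the same control libraries. No group of libraries here was large enough for a check of single libraries that stand apart.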

How the results depend on the processing

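Over the 27 comparisons, 1173 of the called values of single members kept their direction and call under an alternative, 104 kept the direction but lost the call, and 2 reversed, both for Dnmt3a with the length trend removed (0.21 from E12.5 to E13.5 and -0.16 from E13.5 to E16.5). Same-numbered libraries deviated together with correlations from -0.42 to 0.38. For E12.5_GC and V580_D4 all 3 exceeded 0.1 (0.113, 0.286 and 0.337), and the block gave 7 calls there as without it; no other pair of groups with 3 libraries each had every correlation over 0.1. A replicate block moved no count of called members by more than 1.5 times, with 7 called from E12.5 to E13.5 as without it, and ended 1 call, that of Dnmt3a in V580_24h. Asking also for a 2-fold change left 3 members called from E12.5 to E13.5, 3 from E13.5 to E16.5, 2 at P6w against E12.5, 1 at P6w against E16.5 and 0 at E16.5 against E12.5. It left 4 for Con_48h against Con_24h, 2 each for AM580_48h and V580_48h against Con_48h, 2 for the AM580 difference between hours, and 0 for all other comparisons among treatments that had calls apart from V580 between hours. For the days it left 2 for V580_D6 against V580_D4, and 2 for V580_D4 and 1 for V580_D10 against E12.5_GC. Both counts of 2 include Dnmt3l, which passed the filter through day 4 alone. It left 0 for V580_D8 against V580_D6, V580_D10 against V580_D8, and V580_D6 and V580_D8 against E12.5_GC. With only the groups compared in the fit, the counts became 8 for V580_D6 against V580_D4, 8 for V580_D8 against V580_D6, 3 for V580_D10 against V580_D8, 3, 1 and 1 for V580_D6, V580_D8 and V580_D10 against E12.5_GC, 0 for Vc_24h, and 1 for the interaction at 48 h. With the length trend removed they became 7 for V580_D6 against V580_D4, 2 for V580_D10 against V580_D8, 2 for the Vc difference between hours and 1 for the interaction at 48 h. The Vc difference between hours had 2 calls under quantile normalization and 3 in edgeR on recovered fragments, which gave 1 for the interaction at 48 h. Recovering fragments and removing length for FPKM were chosen after seeing the data.

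Leaving out each library in turn gave 4 to 6 members for AM580_48h against Con_48h, 1 to 2 for V580_24h against AM580_24h, 1 to 2 for V580_48h against AM580_48h, 1 to 2 for Vc_48h against Con_48h, 1 to 2 for the Vc difference between hours, 1 to 3 for V580_D6 against V580_D4, and 5 to 8, 1 to 5 and 2 to 6 for V580_D6, V580_D8 and V580_D10 against E12.5_GC. Where this left 1 library in an arm, the lone library was assumed to vary like the others. The 10x levels over all cells stayed within their intervals under stricter cell filters, whereas the highest level in any cluster of 50 cells or more moved from 54.3 to 110 CPM for Tet1, from 23.8 to 41.5 CPM for Dnmt3b and from 9.63 to 22.8 CPM for Dnmt3l at a Leiden resolution of 1. With 2 or 3 libraries per group, small changes may have been missed, although some were called. Dnmt3l was read from at most 25 fragments per library from day 6 on.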
